A study of Mus musculus with 8 samples.

Results

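The genes described are 9 of peroxisomal fatty acid oxidation in mouse liver: Acox2, Ehhadh, Hsd17b4, Acaa1a, Acaa1b, Abcd2, Abcd3, Pex11a and Crat. They were chosen by name, each through the probe set that carries its symbol alone, and where a gene had several the brightest over all arrays was used. All 9 were found among 22180 genes with such a probe set, and all 9 passed the filter on dim signal, so each entered the test. The study measured liver RNA of male mice labelled as C57BL/6J on whole-transcript arrays, with 4 arrays from wild type littermates and 4 from mice with the E167K coding variant of Tm6sf2 knocked in. Tm6sf2 sits in the endoplasmic reticulum membrane and helps to load lipid onto very low density lipoprotein, and the series set out to ask how its variant acts on glucose and lipid metabolism. The sources do not agree on the diet: the series text names a high fat diet lasting 20 weeks, whereas the note for each array names a fat-free sucrose diet or chow lasting 14 weeks. The labels used here give no age, zygosity or hour of collection, nor do they state that each array is a different animal, so the tests measure the spread between these arrays.

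Peroxisomes shorten very long chain, branched chain and dicarboxylic fatty acids and the side chain of bile acid precursors, which mitochondria handle poorly. Half-transporters of the ABCD family bring the acyl-CoA in, an acyl-CoA oxidase makes the opening double bond and releases hydrogen peroxide, a bifunctional enzyme hydrates and dehydrogenates, a thiolase cleaves, and carnitine acyltransferases prepare the shortened chains for export to mitochondria. In rodent liver many of these genes are classical targets of the nuclear receptor PPARα, which fatty acids and fasting activate, and peroxisome number rises with that receptor.

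Upstream sequences are shown for Ehhadh, the member whose groups did not overlap, and for Acaa1a and Acaa1b, close copies whose probe sets can be hard to keep apart but whose promoters differ. Each is the 250 bases before the annotated start in RefSeq (build GRCm38.p6), at chr16:21787835-21788084 on the minus strand, chr9:119341044-119341293 on the plus strand and chr9:119157094-119157343 on the minus strand. Capitals mark CCAAT and the GC box GGGCGG, each searched on both strands.
Ehhadh: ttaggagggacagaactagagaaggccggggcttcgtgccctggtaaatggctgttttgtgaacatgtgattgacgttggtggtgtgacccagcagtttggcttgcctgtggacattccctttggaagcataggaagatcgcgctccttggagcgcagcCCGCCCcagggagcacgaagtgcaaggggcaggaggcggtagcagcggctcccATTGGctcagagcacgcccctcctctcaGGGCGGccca
Acaa1a: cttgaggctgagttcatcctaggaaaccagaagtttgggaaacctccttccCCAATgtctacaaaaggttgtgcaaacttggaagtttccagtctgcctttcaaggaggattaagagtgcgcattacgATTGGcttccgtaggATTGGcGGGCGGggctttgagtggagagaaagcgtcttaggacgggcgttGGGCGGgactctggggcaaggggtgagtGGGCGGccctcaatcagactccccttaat
Acaa1b: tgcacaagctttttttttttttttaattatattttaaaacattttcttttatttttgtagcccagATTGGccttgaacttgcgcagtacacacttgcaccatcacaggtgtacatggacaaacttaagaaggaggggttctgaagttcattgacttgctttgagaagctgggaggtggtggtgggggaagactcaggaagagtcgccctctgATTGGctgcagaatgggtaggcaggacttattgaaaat

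Ehhadh had 1 CCAAT match and 2 GC box matches in this window. Acaa1a had 3 of each, whereas Acaa1b had 2 CCAAT matches and 0 GC box matches, and its window held 41.6% G and C against 53.6% in Acaa1a and 60.4% in Ehhadh. No motif match overlapped another. Over the 27025 genes with such a window, 37.5% held CCAAT and 35.4% held GGGCGG. The direct repeat AGGNCANAGGNCA, the DR1 form that PPARα and its partner RXR bind, was searched on both strands too. It was in 0 of the 8 windows of the members that had an entry (Acox2, Ehhadh, Acaa1a, Acaa1b, Abcd3 and Pex11a) and in 0.400% of all genes. That says only that these letters are not in these windows.

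The 8 arrays were alike in their overall distribution, with a median log2 value of 3.73 to 3.80 per array and a correlation of 0.973 to 0.980 between any pair across all probe sets. The hepatocyte markers Alb (13.5 to 13.7) and Cps1 (13.1 to 13.2) were bright in every array. They lay near the top of the scale, where differences are compressed, so their likeness between arrays checks little. Ass1, of the same list, was dimmer and varied more (6.43 to 7.72). Of 8 hepatocyte markers 0 had an unadjusted p under 0.05. Of 20 markers of Kupffer cells, sinusoidal endothelium, stellate cells, cholangiocytes and lymphocytes, 1 did, the endothelial receptor Lyve1 at 0.73 (limma adjusted p = 0.295). Knock-in replicate 3 stood apart by exocrine pancreas genes: Cela1 was at 10.8 there against 4.24 to 5.27 in the other 7 arrays, Cpa1 at 10.4 against 3.01 to 4.78, and Prss2 at 7.96 against 1.88 to 3.01. Results are therefore also given without that array. The adipocyte markers Adipoq, Plin1 and Lep were set aside as dim. Tm6sf2 differed by -0.06 (SE 0.16), and as the variant is a coding change this level does not check the labels. Nnt, a mitochondrial transhydrogenase known to differ between C57BL/6 substrains, was higher by 1.05 (SE 0.09, limma adjusted p = 0.00951) in the knock-in arrays, so genotype and genetic background cannot be told apart here.

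Across the 13449 tested genes, 9 passed at an adjusted p under 0.05 (0.0669%), and 0 of the 9 peroxisomal genes were among them. At an unadjusted p under 0.05 stood 1 of the 9, Ehhadh, against 11.3% of all tested genes, so the share called is near the background. By group means 7 of the 9 were lower in the knock-in, against 48.9% of all tested genes, and their median difference was -0.16 against 0.0046 for all tested genes. The 4 knock-in arrays lay wholly apart from the 4 wild type arrays in 1 of the 9, again Ehhadh, against 7.16% of all tested genes. Without knock-in replicate 3 the median was also -0.16, 8 of the 9 were lower, 0 passed and Ehhadh was again the gene without overlap. Every difference is a knock-in mean less a wild type mean on the log2 scale, with its standard error (SE) from limma, and adjusted p-values are by Benjamini-Hochberg over all tested genes. In whole liver RNA, fewer cells of a type and less RNA per cell cannot be told apart.

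**Figure D1:**
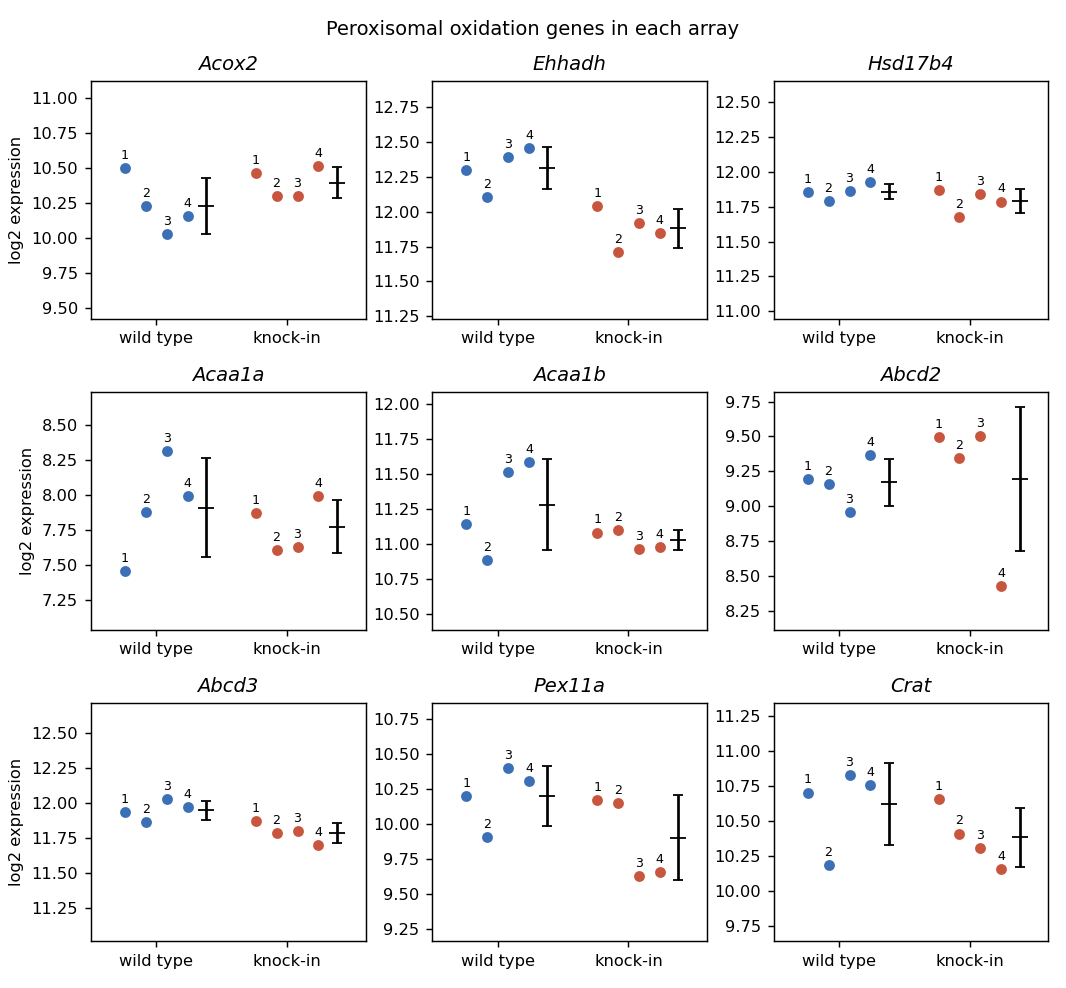
Log2 expression of the 9 genes in each array, with the replicate number above each point and the mean ± SD of 4 arrays as a bar to its right; every panel spans the same number of log2 units. Ehhadh is the gene whose knock-in points all lie below its wild type points, and Abcd2 has a knock-in array far below the other 3.

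Among the oxidases, Acox2 acts on branched chains and on the side chain of bile acid intermediates. Its log2 values were 10.50, 10.23, 10.03 and 10.16 in wild type replicates 1 to 4 and 10.47, 10.30, 10.30 and 10.52 in knock-in replicates 1 to 4. The 4 knock-in values sat above the wild type mean, but wild type replicate 1 was close to the highest of them and the groups overlapped. The difference was 0.17 (SE 0.12, 95% interval -0.10 to 0.43, limma adjusted p = 0.643). Without wild type replicate 1 it was 0.26 and the groups no longer overlapped, as in 11.4% of all tested genes in that setting, with a limma adjusted p of 0.410. Without wild type replicate 3 it was 0.10, and without knock-in replicate 3 it was 0.20. The interval allows at most a difference of 0.43 upward and 0.10 downward.

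Ehhadh, the bifunctional enzyme of straight chains and of dicarboxylic acids and a widely used readout of PPARα activity in rodent liver, had the clearest separation. The wild type arrays were at 12.30, 12.10, 12.39 and 12.46 and the knock-in arrays at 12.04, 11.71, 11.92 and 11.85. The lowest wild type array, replicate 2, and the highest knock-in array, replicate 1, were close, but the groups did not overlap. Means were 12.31 ± 0.15 and 11.88 ± 0.14 (SD, n = 4 arrays each), a difference of -0.43 (SE 0.11, 95% interval -0.68 to -0.19), which is a ratio of 0.742. The unadjusted p of 0.00326 became 0.202 after limma's adjustment over all genes, so the call was not made. The difference stayed between -0.50 and -0.37 whichever array was left out, at adjusted p of 0.200 to 0.406. It passed in only 1 of the 16 alternatives, the trended and robust variance prior (adjusted p = 0.0498). Without knock-in replicate 3, the array with pancreas genes, it was -0.44 and the groups were still apart.

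Hsd17b4, the other bifunctional enzyme, serves branched chains and bile acid intermediates as well as straight chains. It was at 11.85, 11.79, 11.86 and 11.92 in wild type and at 11.87, 11.67, 11.84 and 11.79 in knock-in arrays. All 8 values lay within a narrow band and the groups overlapped. The difference was -0.06 (SE 0.08, 95% interval -0.25 to 0.12, limma adjusted p = 0.823), so a decrease as large as the point estimate of Ehhadh lies outside its interval. Whether Ehhadh and Hsd17b4 changed unequally was not tested.

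The thiolases Acaa1a and Acaa1b carry out the cleavage step. They are close copies, so which copy each probe set reads is uncertain, and the levels of the probe sets are not compared. Acaa1b was at 11.14, 10.89, 11.51 and 11.58 in wild type and at 11.08, 11.10, 10.96 and 10.98 in knock-in arrays. The knock-in arrays lay close together (SD 0.07) inside a wide wild type range (SD 0.33), below wild type replicates 1, 3 and 4 and above replicate 2. The difference was -0.25 (SE 0.15, 95% interval -0.60 to 0.10, adjusted p = 0.587 by limma). With arrays left out in turn it ran from -0.38 without wild type replicate 2 to -0.15 without wild type replicate 4, and it was -0.23 without knock-in replicate 3. Acaa1a was at 7.46, 7.88, 8.31 and 7.99 in wild type and at 7.87, 7.61, 7.63 and 7.99 in knock-in arrays. Here wild type replicate 1 was the lowest of all arrays and replicate 3 the highest, so the wild type arrays enclosed every knock-in array. The difference was -0.14 (SE 0.18, 95% interval -0.54 to 0.26, limma adjusted p = 0.834). It ranged from -0.29 without wild type replicate 1 to -0.0031 without wild type replicate 3.

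Of the importers, Abcd3 (PMP70) takes in branched chain and dicarboxylic acyl-CoA and bile acid intermediates, and Abcd2 takes in very long chain and polyunsaturated acyl-CoA. Abcd3 was at 11.94, 11.86, 12.03 and 11.97 in wild type and at 11.87, 11.78, 11.80 and 11.70 in knock-in arrays. The groups met at a single point, where knock-in replicate 1 lay just above wild type replicate 2. Its spread was small (SD 0.07 in each group) and its difference was -0.16 (SE 0.08, 95% interval -0.34 to 0.02, unadjusted p = 0.0772, limma adjusted p = 0.494). Abcd2 was at 9.19, 9.16, 8.96 and 9.37 in wild type and at 9.50, 9.35, 9.51 and 8.43 in knock-in arrays. Knock-in replicate 4 was the lowest array, and the other 3 knock-in arrays lay above wild type replicates 1 to 3. Abcd2 differed by 0.02 (SE 0.23, 95% interval -0.50 to 0.55) at a limma adjusted p of 0.983. Its difference was 0.28 without knock-in replicate 4 (unadjusted p = 0.0428, adjusted p = 0.417). Its sign turned without wild type replicate 3 or knock-in replicates 1, 2 or 3, to at most -0.08.

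Pex11a, a membrane protein that elongates peroxisomes before they divide and a PPARα target in rodents, was at 10.20, 9.90, 10.40 and 10.30 in wild type arrays. The knock-in arrays split into replicates 1 and 2, at 10.17 and 10.15, and replicates 3 and 4, at 9.63 and 9.65. The latter pair was below every wild type array and the former was above wild type replicate 2. The difference was -0.30 (SE 0.17, 95% interval -0.68 to 0.08, adjusted p = 0.539 by limma). With arrays left out in turn it ran from -0.40 without wild type replicate 2 to -0.21 without knock-in replicate 3, the array with pancreas genes.

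Crat, the carnitine acetyltransferase of peroxisomes and mitochondria, was at 10.70, 10.18, 10.83 and 10.76 in wild type and at 10.66, 10.41, 10.31 and 10.16 in knock-in arrays. Wild type replicate 2 fell among the low knock-in arrays while the other 3 lay above all of them. The difference was -0.24 (SE 0.16, 95% interval -0.60 to 0.13, adjusted p = 0.639 by limma). With arrays left out in turn it ran from -0.38 without wild type replicate 2 to -0.16 without knock-in replicate 4, and it was -0.21 without knock-in replicate 3. Crat was the only member with a second probe set, 17369232, which was dimmer (4.60 to 5.30 over the 8 arrays) and differed by -0.12. The probe sets used were 17303412 (Acox2), 17329220 (Ehhadh), 17350517 (Hsd17b4), 17523042 (Acaa1a), 17532063 (Acaa1b), 17320652 (Abcd2), 17409920 (Abcd3), 17492417 (Pex11a) and 17383633 (Crat).

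**Figure D2:**
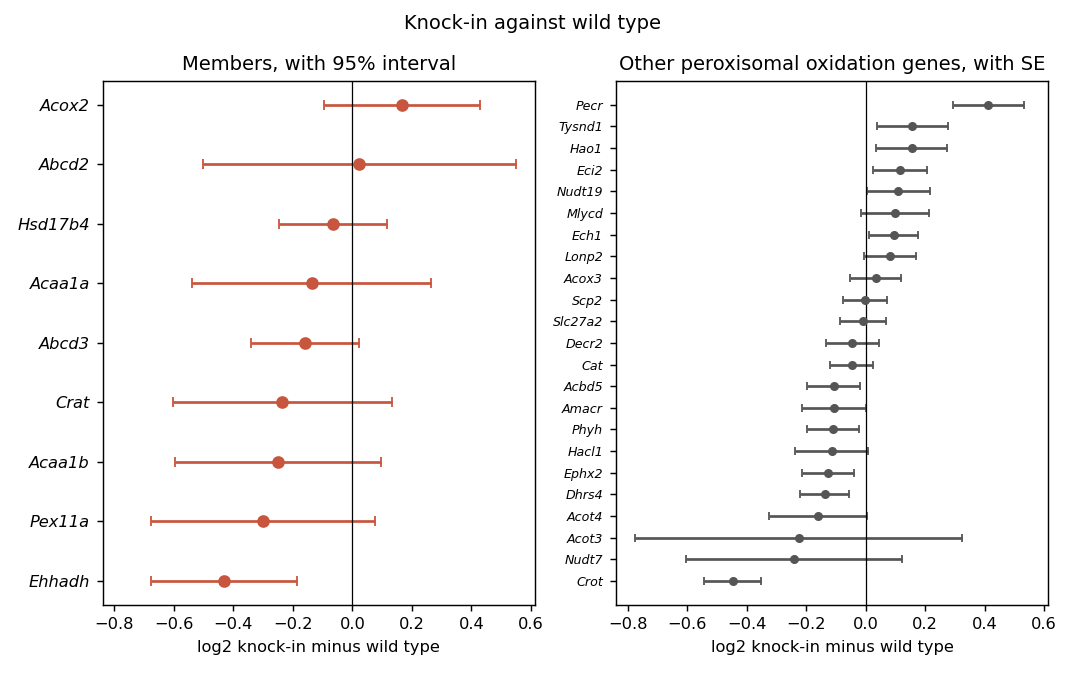
Difference of knock-in and wild type means (log2) for the 9 genes with 95% intervals on the left and for 23 other peroxisomal oxidation genes with standard errors on the right. On the left the interval of Ehhadh, -0.68 to -0.19, is the only one that leaves out 0, and on the right Crot and Pecr lie at the ends.

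Most of the members shared a pattern across arrays that did not follow genotype alone, and other gene lists shared part of it. Wild type replicate 2 was the lowest wild type array in 6 of the 9 (Ehhadh, Hsd17b4, Acaa1b, Abcd3, Pex11a and Crat), and wild type replicates 3 and 4 were each the highest in 4. Among knock-in arrays, replicate 1 was the highest in 5. After each gene was centred on its own mean over the 8 arrays, the median over the 9 genes was 0.07, -0.03, 0.29 and 0.18 in wild type replicates 1 to 4. It was 0.05, -0.09, -0.18 and -0.18 in knock-in replicates 1 to 4. Wild type replicate 2 thus fell inside the knock-in range and knock-in replicate 1 inside the wild type range. This low array is not particular to the 9 genes. In other lists described below it was the lowest wild type array too. Its median was -0.16 for PPARα and its other targets, -0.08 for mitochondrial beta-oxidation and -0.06 for other peroxisomal oxidation genes. For peroxisome assembly and division it was -0.05, close to wild type replicate 4 at -0.04. The PPARα and mitochondrial lists share Cpt1a and Acadm, so they are not separate observations. How often it was the lowest over all tested genes was not counted. Without wild type replicate 2 the groups did not overlap in 5 of the 9 (Ehhadh, Acaa1b, Abcd3, Pex11a and Crat, all lower in knock-in). Over all tested genes 11.1% did not overlap in that setting, 5.44% with the knock-in lower. At an unadjusted p under 0.05 stood 4 of the 9, against 10.4% of all tested genes. Still 0 of the 9 passed the adjusted threshold. That array was picked out after values were seen, and it was the lowest wild type array in each of the 5 genes named. Leaving it out therefore moves their groups apart by construction and lends no support to a difference. Leaving out any other array gave 1 or 2 genes without overlap, against 9.66% to 12.1% of all tested genes.

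**Figure D3:**
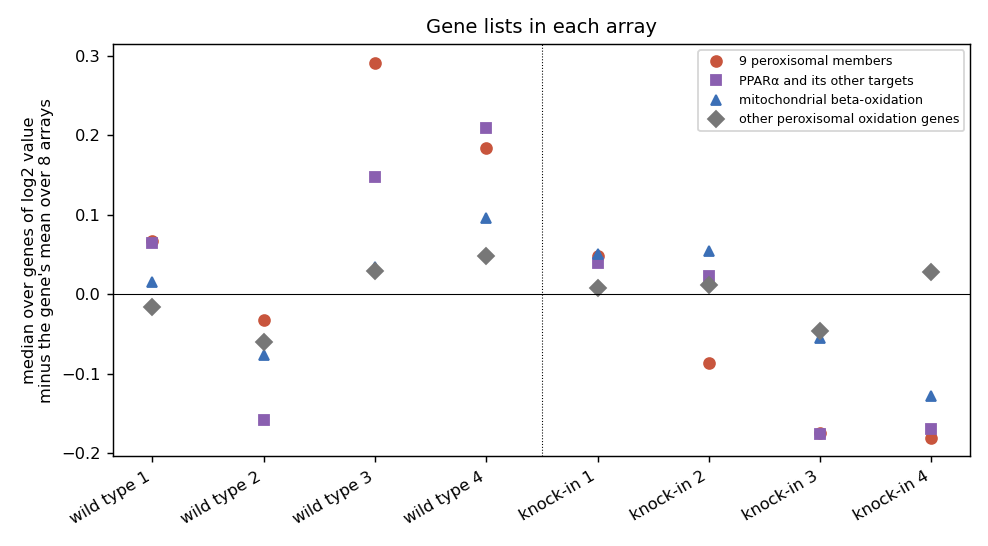
Median over the genes of 4 lists, in each array, of the log2 value minus the gene's own mean over the 8 arrays. The peroxisomal genes are highest in wild type replicates 3 and 4 (0.29 and 0.18) and lowest in knock-in replicates 3 and 4 (-0.18 each), and the PPARα list is also low in wild type replicate 2 (-0.16).

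The clock genes of the same livers are given beside these values, although by limma 0 of the 11 tested passed (9 at an unadjusted p under 0.05). A clock score, the mean of 8 repressor and output genes minus the mean of Arntl, Clock and Npas2, was -1.17, -1.50, -0.89 and 0.24 in wild type and 0.60, 1.69, 1.61 and -0.05 in knock-in replicates 1 to 4. With this score as a covariate the median difference of the 9 members was -0.47 instead of -0.16, while that of all tested genes was 0.00034. In that fit Ehhadh was at -0.51 (SE 0.18), Acaa1b at -0.57 (SE 0.23), Pex11a at -0.52 (SE 0.27), Crat at -0.47 (SE 0.26) and Abcd2 at -0.54 (SE 0.31). Abcd3 was at -0.23 (SE 0.14), Hsd17b4 at -0.08 (SE 0.14) and Acaa1a at -0.025 (SE 0.30), while Acox2 lay the other way at 0.37 (SE 0.18). At an unadjusted p under 0.05 stood 2 of the 9, against 6.54% of all tested genes. The smallest limma adjusted p among the 9 was 0.730, and the standard errors were wider than without the score. Hours of collection are not known here, and the score overlapped between genotypes only through wild type replicate 4 and knock-in replicate 4.

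**Figure D4:**
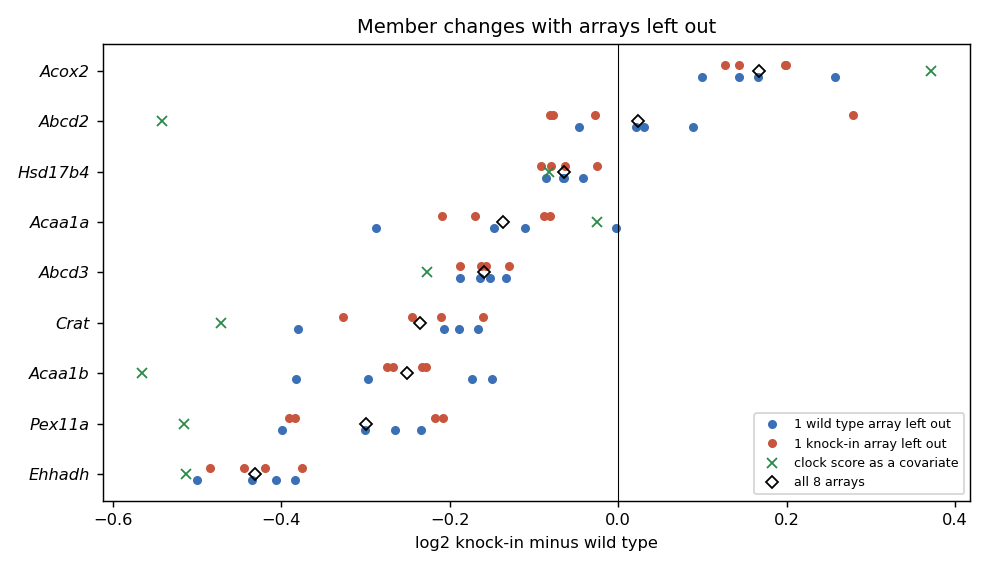
Difference of each of the 9 genes (log2 knock-in minus wild type) with all 8 arrays (diamond), with each array left out in turn (points) and with the clock score as a covariate (cross). Ehhadh stays between -0.51 and -0.37 in these fits, and Abcd2 changes sign.

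Of 28 further genes of peroxisomal oxidation, 25 had a probe set of their own and 23 were tested. By means 9 were higher and 14 lower, with a median of -0.04, and 0 passed in either direction. The 2 with an unadjusted p under 0.05 lay in opposite directions. Crot, which makes medium chain acylcarnitines for export from the peroxisome, was at 12.44, 12.62, 12.60 and 12.65 in wild type and at 12.09, 12.03, 12.08 and 12.32 in knock-in arrays. Every knock-in array was below every wild type array. Its difference of -0.45 (SE 0.09, unadjusted p = 0.00112, limma adjusted p = 0.145) was of the same size as that of Ehhadh. The difference kept a value of -0.51 to -0.41 with each array left out. With the clock score as a covariate it was smaller, at -0.36 (SE 0.16, limma adjusted p = 0.772). Pecr, the peroxisomal trans-enoyl-CoA reductase, was at 9.20, 9.12, 8.89 and 8.69 in wild type and at 9.42, 9.33, 9.36 and 9.43 in knock-in arrays. All 4 knock-in arrays lay above the wild type arrays, at 0.41 (SE 0.12, limma adjusted p = 0.258). Dhrs4, a carbonyl reductase, was at -0.14 (SE 0.08), and Ephx2, an epoxide hydrolase, at -0.13 (SE 0.09). Acot8 had a probe set with several symbols only, and Eci3 and Hao2 were dim. Catalase (Cat), which removes the hydrogen peroxide that the oxidases release, was at -0.05, but at 13.4 to 13.5 it lay near the top of the scale, where differences are compressed.

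Genes of peroxisome assembly and division lay on both sides of 0. Of 17 tested genes 9 were higher and 8 lower, with a median of 0.01. By limma 0 passed, and 3 had an unadjusted p under 0.05. Pxmp2, a pore-forming membrane protein, was at 0.26 (SE 0.10) and Pex7, the receptor that imports thiolase, at 0.26 (SE 0.10), and for both the knock-in arrays lay wholly above the wild type arrays. Pxmp4, another membrane protein, was at -0.23 (SE 0.10), and the fission enzyme Dnm1l at -0.13 (SE 0.10). With the clock score as a covariate Pxmp4 was at -0.0021 (SE 0.14). The lowest limma adjusted p among the 17 was 0.363.

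Ppara, the receptor itself, was at 9.47, 9.37, 9.66 and 9.80 in wild type and at 9.51, 9.65, 9.65 and 9.42 in knock-in arrays. The groups overlapped through most of their range, with a difference of -0.02 (SE 0.11, 95% interval -0.28 to 0.24, limma adjusted p = 0.974). With the clock score as a covariate Ppara was at -0.34 (SE 0.13, unadjusted p = 0.0341, limma adjusted p = 0.739). Of 18 tested genes of PPARα and its other targets, 15 were lower and 3 higher by means, against 48.9% of all tested genes lower. Their median was -0.10. By limma 0 passed, and 5 had an unadjusted p under 0.05 (4 lower and 1 higher), against 11.3% of all tested genes. The hormone Fgf21, the kinase Pdk4 and the thioesterase Acot1 were at -1.06 (SE 0.27), -1.17 (SE 0.37) and -0.71 (SE 0.23), with limma adjusted p of 0.202 to 0.316. The coactivator Ppargc1a was at 0.33 (SE 0.11). Plin2, also at an unadjusted p under 0.05, was at -0.39 (SE 0.14, limma adjusted p = 0.340). The thioesterase Acot2 was at -0.82 (SE 0.38, limma unadjusted p = 0.0581, adjusted p = 0.454), with overlapping groups. Several other targets in the list differed less. Fabp1 was at -0.02 (SE 0.12), Plin5 at -0.06 (SE 0.22), Cyp4a31 at -0.08 (SE 0.21) and Angptl4 at -0.11 (SE 0.16). Cd36 was at 0.26 (SE 0.23). Whether PPARα activity differed was not tested. In Fgf21 the wild type arrays were at 8.86, 8.12, 9.25 and 9.45 and the knock-in arrays at 7.59, 7.91, 8.15 and 7.80. Wild type replicate 2 was again the low one, the only wild type array under a knock-in array.

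Mitochondrial beta-oxidation, the parallel pathway for common long chains, was split, with 8 of 18 tested genes higher, 10 lower, a median of -0.06, 0 past limma's threshold and 2 at an unadjusted p under 0.05. The hydratase Echs1 was at 0.19 (SE 0.08), with every knock-in array above the wild type arrays. The dienoyl-CoA reductase Decr1 was at -0.23 (SE 0.10), the carnitine transporter Slc22a5 at -0.34 (SE 0.16) and Hadhb, through a probe set of low signal, at -0.35 (SE 0.19). Whether the peroxisomal and mitochondrial lists differ was not tested.

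A list for bile acid synthesis held genes of the sterol steps and some of the side chain. Amacr and Scp2 were in it and in the list of further peroxisomal oxidation genes, whereas Acox2 and Hsd17b4 were not in it. Of the 10 tested genes of this list 3 were higher and 7 lower by means, with a median of -0.06. By limma 0 passed, and 2 had an unadjusted p under 0.05. These 2, the sterol hydroxylases Cyp7a1 and Cyp8b1, were at -0.84 (SE 0.24) and -0.74 (SE 0.14), each with every knock-in array below the wild type arrays and limma adjusted p of 0.251 and 0.115. The other sterol hydroxylases, Cyp27a1 and Cyp7b1, were at 0.07 (SE 0.10) and -0.30 (SE 0.38), with overlapping groups. Hsd3b7 and Akr1d1, which act on the sterol ring, were at -0.18 (SE 0.09) and 0.32 (SE 0.17). The side chain enzymes Acox2, Amacr, Hsd17b4 and Scp2 were at 0.17, -0.11, -0.06 and -0.00079, with 0 of these 4 at an unadjusted p under 0.05. Scp2, at 13.0 to 13.1, lay near the top of the scale.

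**Figure D5:**
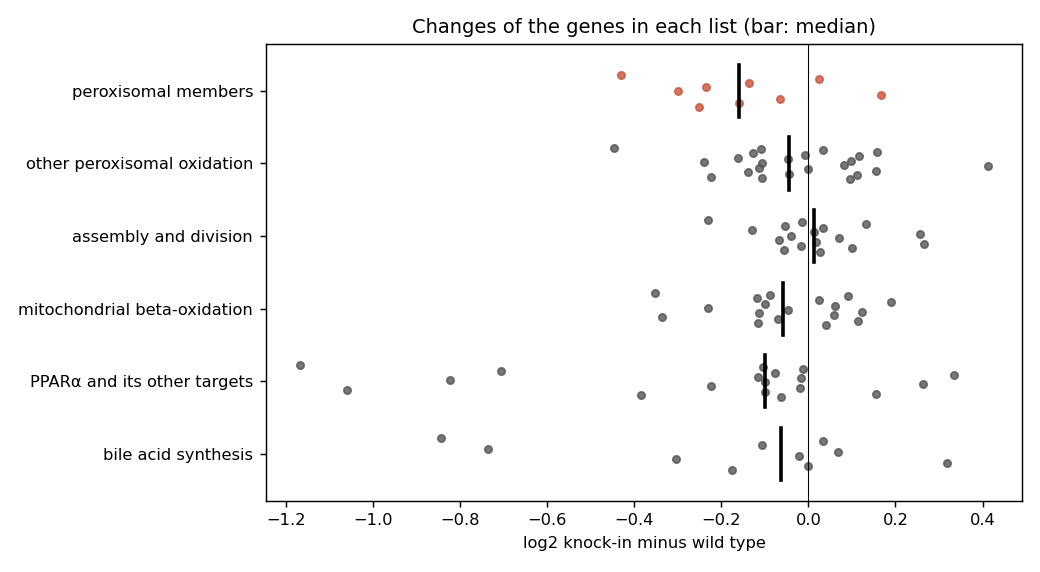
Difference of knock-in and wild type means (log2) for each tested gene of 6 lists, with the median of the list as a bar. The median of the peroxisomal genes is -0.16, that of the PPARα list -0.10 and that of assembly and division 0.01.

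The gene profiles most like that of Ehhadh, by the root mean square difference of centred values over the 8 arrays, were Mfsd6 (0.07), 1700110C19Rik (0.08), Zfand2a (0.08), Ppp1r16b (0.09) and Reps1 (0.09). All 5 were lower in the knock-in by means, at -0.43 to -0.36, which their choice by likeness to Ehhadh over the same arrays sets in advance and which is given as a description. The signal of 1700110C19Rik lay near the dim limit. Among the members the nearest to Ehhadh were Abcd3 (0.16), Acaa1b (0.18) and Crat (0.18), and the farthest was Abcd2 (0.40), against a median of 0.31 over all tested genes. This measure also depends on how much a gene varies, so a gene that hardly varies cannot lie far from Ehhadh.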

How the data were processed

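Liver RNA of 8 samples was measured on Affymetrix whole-transcript arrays. The authors deposited a log2 value for each probe set in each array; per the submitters' processing notes RMA and limma were used, with no versions. Because RMA equalizes the array distributions, a shift shared by most genes would not show. No source used here gives the build or the annotation version. Of 41345 probe sets, 23521 carried 1 symbol, 1814 several, and 16010 are unnamed here; 23328 of the first were matched by Entrez identifier to RefSeq (GRCm38.p6), with 0 symbols changed.

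Testing was limited to genes for which at least 4 of the 8 arrays exceeded the dim limit, the 40th percentile of the array (3.46 to 3.50). This left 13449 of 22180 genes. Knock-in and wild type were compared by limma 3.58.1 in R 4.3.3 (lmFit, eBayes, no term but genotype, two-sided tests, Benjamini-Hochberg over all tested genes, threshold 0.05), a fit tested on simulated data. Arrays have no read depth, and their number limits the precision. Members and lists were chosen with earlier results of these data known. Other genes named are up to 4 per list with the smallest p, a few set by name, and the 5 most like Ehhadh. Amacr, Scp2, Cat, Cyp27a1, Cyp7b1, Plin2, Acot2, Fabp1, Plin5, Cyp4a31, Angptl4, Cd36 and the listed marker genes were added after values were seen. Alternatives were other filters, normalization, priors, weights, probe set means, a replicate block, a clock covariate and each array left out.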

Additional observations from a re-analysis of the deposited data

Results flagged for a closer look

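Of 80 groups of 4 arrays (40 genes in each genotype), 6 held an array far from the other 3 by Dixon's test, and chance gives about 1 in 20. The 40 genes include some picked by small p and pancreas genes added after values were seen. The count is therefore a description and cannot be set against that rate. Among the peroxisomal genes the only such value was Abcd2 in knock-in replicate 4, at 8.43 against 9.35 to 9.51 in the other knock-in arrays. Hadhb stood out in wild type replicate 3 (5.05 against 4.66 to 4.72) and in knock-in replicate 2 (5.04 against 4.15 to 4.29), both low signals. Cyp8b1 was at 10.34 in knock-in replicate 2 against 10.81 to 10.87. The pancreas genes Cela1, at 10.84 against 4.75 to 5.27, and Prss2, at 7.96 against 2.29 to 3.01, stood out in knock-in replicate 3.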

How the results depend on the processing

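Of 591 values of the 37 named genes under 16 alternatives, 573 kept direction and side of the threshold. Abcd2 reversed to -0.54 with the clock covariate and ranged from -0.081 to 0.28 with each array left out; Ppara, at -0.34 with that covariate, ranged from -0.087 to 0.056 and Tm6sf2 from -0.16 to 0.064. With the trended and robust prior 1 member passed (Ehhadh), as did 1 further peroxisomal gene (Crot, adjusted p = 0.0238) and Cyp8b1 (0.0302). The members' median was -0.47 with the clock covariate and -0.21 to -0.13 with each array left out. Groups did not overlap in 2 members after a further quantile normalization and in 1 to 5 with each array left out. Over all tested genes, 9 passed as reported, against 2 with no filter, 27 with the stricter filter, 73 with the trended and robust prior, 25 with array weights, 24 when probe sets were averaged, 1 with the clock covariate and 1 to 12 with each array left out. With the replicate block the count was 2, and 0 members passed. Deviations of same-numbered arrays correlated at -0.11 to 0.10, which gives no sign of pairing by number but cannot exclude it. Nnt lost its call with the block (1.05, adjusted p = 0.130), with the clock covariate (0.87, adjusted p = 0.312) and without wild type replicate 2 or knock-in replicates 1 or 3 (1.02 to 1.03). The cause of these changes was not tested. Signals near the top of the scale limit what can be seen for Cat, Scp2, Alb and Cps1.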
